A study of Mus musculus with 9 samples.

Results

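The 38 genes described here encode the machinery that moves new proteins into the endoplasmic reticulum (ER), folds them, and removes those that fail to fold, together with the sensors of the unfolded protein response (UPR). They were listed by name in 4 roles, with 6 UPR sensors and regulators, 13 chaperones and folding enzymes, 8 translocon genes and 11 genes of ER-associated degradation (ERAD). Each gene was read from 1 probe set, the one with the highest mean over all 9 arrays among those annotated to that gene alone. Such a probe set existed for 37 of the 38 genes, out of 18193 genes measured in the same way. The translocon gene Sec61g was found only on a probe set that names several genes and was not analysed here. All 6 sensors, 13 chaperones and 11 ERAD genes and 7 of the 8 translocon genes were therefore measured.

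The cells were macrophages grown from bone marrow of C57BL6 mice aged 6 to 12 weeks, in medium conditioned by L929 cells, a mouse fibroblast line that secretes the macrophage growth factor, and were used on day 6 in culture. All groups, the controls included, were first primed for 3 h with ultrapure LPS (33 ng/mL), the bacterial lipopolysaccharide that macrophages sense as a sign of infection. The second exposure lasted 6 h and was sterile saline in the control group (LPS), the organotin TMT OH at 1.25 µM in the group LPS+TMT, or the organotin TET Br at 10 µM in the group LPS+TET, each with 3 biological replicates. The series set out to activate the NLRP3 inflammasome with each organotin and to compare it with saline. No group was left without LPS, so each fold change below is against primed cells given saline. The doses of the organotins differ, so compound and dose cannot be told apart where they are compared. No label says whether the replicates came from separate mice, so the spread behind the p-values may be technical.

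Secreted and membrane proteins enter the ER through the Sec61 channel, are folded by chaperones such as BiP and by disulfide isomerases, and, when they fail to fold, are pulled back into the cytosol by ERAD and degraded. Unfolded protein is sensed by IRE1, PERK and ATF6, which splice the Xbp1 messenger RNA, slow translation and release a transcription factor after cutting in the Golgi. Together these arms raise chaperone and ERAD genes in most cells under ER stress, and macrophages, which secrete cytokines in large amounts after LPS, draw on the same machinery.

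The arrays were alike within groups (Pearson correlations across genes of 0.990 or more between replicates). On the table of 1 probe set per gene, medians ran from 6.73 to 6.86 on the log2 scale over all 9 arrays, but the interquartile range was narrower on the TET arrays (3.83 to 3.93) than on the saline (4.25 to 4.33) or TMT arrays (4.32 to 4.37). The 10 macrophage markers were all bright, with a mean of 12.59 to 12.62 on the saline, 12.30 to 12.56 on the TMT and 12.38 to 12.50 on the TET arrays. The mean of 7 measured markers of B and plasma cells was 5.26 to 5.37 in saline, 5.15 to 5.30 under TMT and 5.67 to 5.74 under TET, and that of 7 stromal markers 5.91 to 6.01, 5.89 to 6.25 and 6.30 to 6.70. Both lists stood below the median gene (6.82). The 8 measured neutrophil markers averaged 7.60 to 7.77 in saline, 7.21 to 7.47 under TMT and 7.07 to 7.26 under TET. Under TMT 4 of them fell (50%, against 13.4% of all genes) and 1, Mmp8, rose by 0.55. Under TET 4 fell (50%, against 23.4% of all genes) and none rose. S100a9 fell by 1.70 and 1.66, while S100a8 stood at 0.45 and -0.33 without passing. The T and NK cell markers averaged 4.82 to 4.89, 4.75 to 4.87 and 5.09 to 5.25, the erythroid and megakaryocyte markers 6.65 to 6.69, 6.68 to 6.82 and 6.88 to 7.07, the dendritic cell markers 5.25 to 5.37, 5.26 to 5.44 and 5.34 to 5.67, and the mast cell and basophil markers 5.08 to 5.09, 4.92 to 5.16 and 5.13 to 5.25. The part of these markers in the results was not tested. In bulk RNA of this kind, fewer cells of a type and less RNA per cell cannot be told apart.

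Under TMT the ER genes split, with 7 rising and 4 falling. Ern1 (IRE1), Eif2ak3 (PERK), the chaperones Hsp90b1 and Creld2 and the ERAD genes Edem2, Derl1 and Erlec1 rose. Atf6, the protease gene Mbtps2, Sec61b and the ERAD adaptor Sel1l fell. A gene was called at an adjusted p under 0.05 in limma's moderated test with Benjamini-Hochberg adjustment over all 18193 genes, two-sided, and over all genes 14.3% rose and 13.4% fell, against 18.9% and 10.8% of the 37 ER genes. Among the 9097 genes at or above the median signal (bright genes below), where 35 of the 37 ER genes lie, 24.1% rose and 22.1% fell. Neither share of the ER genes stood above that of these bright genes. The bright genes start at the median of 6.82, whereas the ER genes averaged 10.02 to 10.46 per array, so the 2 sets are not matched in brightness. The median log2 change of the ER genes was 0.00, against 0.01 over all genes. The 4 falls were the less stable part of the count: 2 remained without saline replicate 1, 1 without saline replicate 2, 2 without saline replicate 3 and 2 without TMT replicate 1.

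Under TET 20 ER genes fell and 3 rose. The falls took in 11 of the 13 chaperones and folding enzymes, 5 of the 11 ERAD genes, Xbp1 and both site proteases that cut ATF6, while Eif2ak3, Ern1 and Edem3 rose. Over all genes 27.4% rose and 23.4% fell, and among the bright genes 23.6% rose and 41.3% fell, against 8.11% and 54.1% of the 37 ER genes. The median log2 fold change was -0.33 over the ER genes, 0.09 over all genes and -0.19 over the bright genes. The scaling moved this count, and the part of the narrower range of the TET arrays was not tested. The falls numbered 17 after another quantile normalization, 12 after cyclic loess and 23 after centring each array on its median, and the median of all genes became -0.03, -0.001 and -0.02. Set against the median bright gene, the median ER gene stood lower by a difference of -0.14 as deposited and of -0.11, -0.12 and -0.14 under those scalings.

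**Figure D1:**
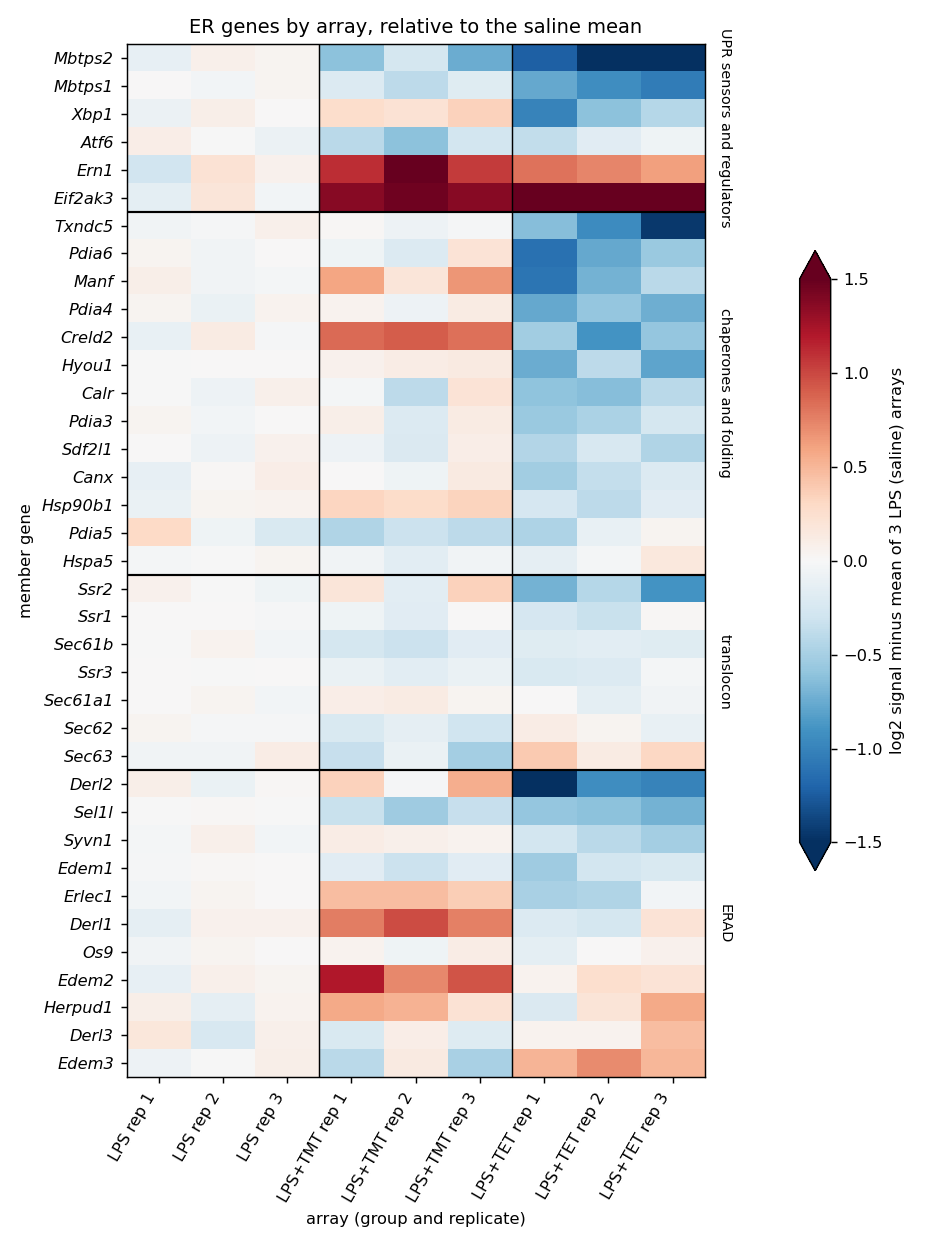
Log2 signal of the 37 measured ER genes (rows, by role) on each of the 9 arrays (columns), minus the mean of the 3 saline arrays. Colour runs from -1.5 (blue) to 1.5 (red) and values beyond that range have the end colours. The TET columns are blue through most of the chaperone block, while Eif2ak3 and Ern1 are red on every TMT and TET array.

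Over the 37 genes, the first principal component carried 68.5% of the variance and set the TET arrays (2.65 to 3.05) apart from the saline (-1.66 to -1.52) and TMT arrays (-1.60 to -0.79). The second carried 22.2% and separated the TMT (1.38 to 1.54) from the saline arrays (-1.66 to -1.09), with the TET arrays between them (-0.40 to 0.34). No array of any group lay among those of another group on the pair of axes. In neither comparison with saline did 10 of the 37 genes (27%) pass, against 40.6% of all genes and 21.6% of bright genes: Hspa5, Pdia5, Sec61a1, Sec62, Sec63, Ssr1, Ssr3, Herpud1, Derl3 and Os9. Other, dimmer probe sets of Sec61a1, Sec62, Sec63, Ssr1 and Herpud1 did pass.

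Promoters of several of these genes carry the ER stress element, the site bound by ATF6 together with NF-Y, and their sequences are shown because the genes that share it did not move alike. The element was searched as CCAAT and CCACG with 9 bases between them, on both strands, in RefSeq windows (GRCm38.p6) of 250 bases before to 50 bases after the start site. Of the 38 genes, 31 had a window, and Atf6, Derl1, Erlec1, Hyou1, Manf, Sec61a1 and Ssr2 had none in the table used. The element lay in 8 of the 31 (25.8%): Calr, Canx, Creld2, Derl3, Hsp90b1, Hspa5, Pdia6 and Syvn1. Some genes have several windows, and it lay in 39 of 32851 windows (0.119%), or 37 of 27025 genes (0.137%). Its second form, ATTGG and CCACG with 1 base between them, lay in Herpud1 alone and in 12 windows (0.0365%, or 0.0444% of genes). The core CCACG by itself, which both forms contain, lay in 24 of the 31 genes (77.4%). It lay in 32.8% of all windows and 35.5% of all genes. The unfolded protein response element, TGACGTGG, lay in 1 gene, Txndc5 (3.23%), in 0.676% of windows and in 0.714% of genes. These matches describe letters in a window and say nothing of binding.

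The 250 bases before the start site of the 8 genes with either form and the largest TET fold changes read 5′ to 3′ on each gene's own strand as follows, with the element in capitals. Reading downstream, Hsp90b1 carries 1 copy on each strand, and in Creld2, Calr and Derl3 the element runs on the opposite strand, so that its letters appear reversed and complemented.
Pdia6: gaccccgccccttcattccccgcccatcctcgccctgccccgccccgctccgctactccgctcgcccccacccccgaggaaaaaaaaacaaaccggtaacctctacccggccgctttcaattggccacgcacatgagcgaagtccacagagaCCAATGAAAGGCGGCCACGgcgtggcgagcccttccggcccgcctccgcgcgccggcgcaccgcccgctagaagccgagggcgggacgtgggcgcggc
Creld2: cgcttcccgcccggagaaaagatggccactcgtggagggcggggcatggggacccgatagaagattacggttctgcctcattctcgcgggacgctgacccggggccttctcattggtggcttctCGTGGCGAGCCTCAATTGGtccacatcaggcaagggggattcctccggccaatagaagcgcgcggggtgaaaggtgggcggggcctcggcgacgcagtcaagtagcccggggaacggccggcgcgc
Calr: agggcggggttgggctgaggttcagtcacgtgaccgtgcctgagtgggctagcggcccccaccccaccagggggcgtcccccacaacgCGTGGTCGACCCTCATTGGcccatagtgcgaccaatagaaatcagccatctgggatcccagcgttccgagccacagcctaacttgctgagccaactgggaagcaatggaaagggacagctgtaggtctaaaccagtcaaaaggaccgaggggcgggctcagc
Syvn1: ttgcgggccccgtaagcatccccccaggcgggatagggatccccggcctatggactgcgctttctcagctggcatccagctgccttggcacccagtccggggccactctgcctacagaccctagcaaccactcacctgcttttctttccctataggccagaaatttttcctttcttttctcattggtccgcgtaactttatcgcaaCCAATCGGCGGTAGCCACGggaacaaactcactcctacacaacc
Canx: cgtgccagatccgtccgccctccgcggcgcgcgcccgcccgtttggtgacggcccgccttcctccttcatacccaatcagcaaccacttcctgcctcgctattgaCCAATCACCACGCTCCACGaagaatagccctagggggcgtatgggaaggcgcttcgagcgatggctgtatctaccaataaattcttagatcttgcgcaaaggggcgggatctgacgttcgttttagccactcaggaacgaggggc
Hsp90b1: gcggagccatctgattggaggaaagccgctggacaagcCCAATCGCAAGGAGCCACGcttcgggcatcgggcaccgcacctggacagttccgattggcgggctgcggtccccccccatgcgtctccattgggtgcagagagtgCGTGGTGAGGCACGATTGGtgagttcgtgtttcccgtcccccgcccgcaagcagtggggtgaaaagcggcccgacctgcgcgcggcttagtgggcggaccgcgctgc
Derl3: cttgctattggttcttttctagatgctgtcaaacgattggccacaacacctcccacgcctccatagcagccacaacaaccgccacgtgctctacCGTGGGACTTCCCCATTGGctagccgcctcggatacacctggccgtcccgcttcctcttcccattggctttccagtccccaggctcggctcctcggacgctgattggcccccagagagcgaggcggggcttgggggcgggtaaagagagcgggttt
Herpud1: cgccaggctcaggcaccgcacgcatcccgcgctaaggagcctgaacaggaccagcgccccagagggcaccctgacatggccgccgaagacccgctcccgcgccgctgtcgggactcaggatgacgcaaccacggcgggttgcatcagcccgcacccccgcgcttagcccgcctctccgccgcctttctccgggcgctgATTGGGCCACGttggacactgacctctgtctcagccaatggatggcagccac
These lie at chr12:17266339-17266588 (plus strand) for Pdia6, chr15:88819396-88819645 (plus) for Creld2, chr8:84846932-84847181 (minus) for Calr, chr19:6046326-6046575 (plus) for Syvn1, chr11:50325674-50325923 (minus) for Canx, chr10:86705445-86705694 (minus) for Hsp90b1, chr10:75893148-75893397 (plus) for Derl3 and chr8:94386179-94386428 (plus) for Herpud1. Of the 9 genes with either form, 2 rose and none fell under TMT (Hsp90b1 and Creld2), and 6 fell and none rose under TET (Pdia6, Creld2, Calr, Syvn1, Canx and Hsp90b1). At an unadjusted p under 0.05 in limma, still 0 of them would count as lower under TMT or higher under TET. Over all genes 14.3% rose under TMT and 23.4% fell under TET, and among bright genes 24.1% and 41.3%. Of the 21 other measured genes with a window, 3 rose and 3 fell under TMT and 3 rose and 10 fell under TET. The median log2 change of the genes with the element was 0.02 under TMT and -0.36 under TET, and that of the others -0.07 and -0.18. Hspa5, Derl3 and Herpud1, which carry the element as well, passed in neither comparison, though the second probe set of Herpud1 rose under TMT.

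Among the sensors, PERK showed the largest change of the 37 measured ER genes. Eif2ak3, the kinase that slows translation when unfolded protein builds up, read 6.16, 6.49 and 6.27 on the saline arrays, 7.67, 7.76 and 7.67 under TMT and 9.41, 9.19 and 9.74 under TET. The groups did not overlap, and all 3 TET arrays lay above all 3 TMT arrays. The change was 1.39 under TMT on the log2 scale (2.63-fold, SE 0.14, adjusted p = 3.7e-05 in limma) and 3.14 under TET (8.82-fold, SE 0.14, adjusted p = 7.9e-08). Its 2 dimmer probe sets also rose under TET, by 1.28 and 2.81, and stood at 0.26 and 0.15 under TMT without passing.

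Ern1, which encodes IRE1, the nuclease that splices Xbp1, read 8.06, 8.57 and 8.42 in saline, 9.46, 9.87 and 9.40 under TMT and 9.17, 9.08 and 8.96 under TET. Every treated array lay above every saline array. It rose by 1.22 under TMT (2.34-fold, SE 0.16, limma adjusted p = 0.00021) and by 0.72 under TET (1.65-fold, adjusted p = 0.0037). Of its 5 probe sets, 2 rose under each organotin, the second by 0.725 under TMT and 1.389 under TET. The dimmer ones stood at -0.016 to 0.254 under TMT and 0.153 to 0.474 under TET without passing. Xbp1, the target of IRE1 and the transcription factor of the ERAD and chaperone programme, read 11.06, 11.23 and 11.15 in saline. Its values were 11.41, 11.36 and 11.49 under TMT and 10.15, 10.53 and 10.72 under TET. It fell by 0.68 under TET (1.60-fold, SE 0.14, limma adjusted p = 0.0021), and all 4 of its probe sets fell there, by 0.68 to 1.23. Under TMT its 3 arrays lay above the saline arrays, but the difference of 0.28 did not pass (adjusted p = 0.18, 0.048 without TET replicate 1), and no probe set separates spliced from unspliced Xbp1 here.

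The transcripts of Atf6 and of the proteases that cut it were lower where they passed. The activity of ATF6 was not measured. Atf6 read 10.31, 10.20 and 10.12 in saline, 9.80, 9.59 and 9.93 under TMT and 9.84, 10.04 and 10.15 under TET. It fell by 0.44 under TMT (1.35-fold, SE 0.12, limma adjusted p = 0.018), as did its other 2 probe sets, but that call was lost without saline replicate 1, saline replicate 2 or TMT replicate 2 (adjusted p 0.053 to 0.079). The TET arrays overlapped the saline arrays, and the difference of -0.20 did not pass (adjusted p = 0.18), while the other 2 probe sets fell there, by 0.225 (adjusted p = 0.047 over all probe sets) and 1.38. Mbtps2, the site-2 protease that releases ATF6 from the membrane, read 9.85, 10.05 and 10.01 in saline, 9.36, 9.71 and 9.22 under TMT and 8.74, 8.30 and 8.30 under TET, in 3 groups with no overlap. It fell by 1.52 under TET (2.87-fold, SE 0.16, limma adjusted p = 2.5e-05) and by 0.54 under TMT (adjusted p = 0.025). The TMT call was lost when any of saline replicates 2 and 3 or TMT replicates 1 and 3 was left out (adjusted p 0.081 to 0.098). Mbtps1, the site-1 protease that makes the first cut, read 9.41, 9.36 and 9.44 in saline, 9.20, 9.01 and 9.22 under TMT and 8.64, 8.47 and 8.36 under TET. It fell by 0.91 under TET (1.88-fold, limma adjusted p = 4e-05), and its difference of -0.26 under TMT did not pass (adjusted p = 0.082).

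**Figure D2:**
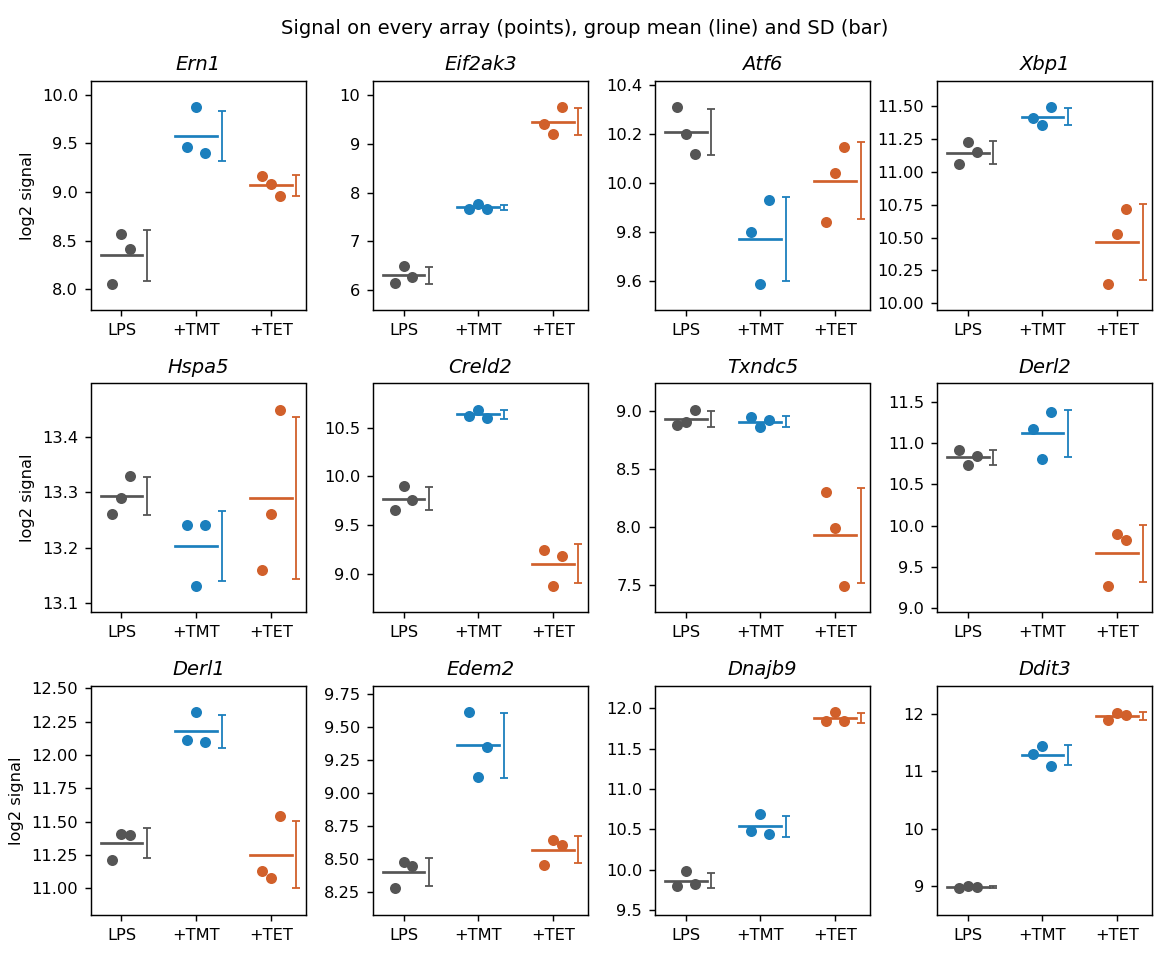
Log2 signal of 10 ER genes and of Dnajb9 and Ddit3 on every array (points; 3 per group), with the group mean (line) and SD (bar); each panel has its own vertical axis, which does not start at 0. Eif2ak3, Dnajb9 and Ddit3 step up from saline to TMT to TET, Creld2 is high under TMT and low under TET, and the Hspa5 points of all groups lie between 13.13 and 13.45.

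Of the 13 chaperones and folding enzymes, 11 fell (84.6%, against 23.4% of all genes and 41.3% of bright genes) and none rose under TET. The median log2 fold change was -0.54. The falls numbered 9 after another quantile normalization, 7 after cyclic loess and 11 after centring. For each of the 11, every TET array lay below every saline array. These are the genes already called, and the share of all genes with no such overlap was not counted, so this is a description only. Under TMT 2 rose (15.4%, against 14.3% of all genes and 24.1% of bright genes), none fell, and the median was 0.00. At an unadjusted p under 0.05 in limma, 0 chaperones would count as higher under TET and 1 as lower under TMT.

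Hspa5, which encodes BiP, the most abundant ER chaperone and a standard marker of ER stress, read 13.26, 13.29 and 13.33 in saline, 13.24, 13.13 and 13.24 under TMT and 13.16, 13.26 and 13.45 under TET. The TET arrays straddled the saline arrays. Its difference from saline was -0.003 under TET (95% interval -0.22 to 0.21, limma adjusted p = 0.98) and -0.09 under TMT (-0.30 to 0.13, adjusted p = 0.60), and none of its 3 probe sets passed in either comparison. The median bright gene stood at -0.19 under TET, below Hspa5.

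The folding enzymes with the largest falls were lower on every TET array than in saline. Txndc5, a disulfide isomerase, read 8.88, 8.91 and 9.01 in saline, 8.95, 8.86 and 8.92 under TMT and 8.30, 7.99 and 7.49 under TET. The fall of 1.01 (2.01-fold, SE 0.17, limma adjusted p = 0.00074) was the largest among the chaperones, and the TET arrays differed more among themselves (SD 0.41) than the saline arrays (SD 0.07). Pdia6, another disulfide isomerase, read 9.84, 9.74 and 9.80 in saline, 9.73, 9.59 and 10.00 under TMT and 8.68, 9.02 and 9.24 under TET, a fall of 0.82 (adjusted p = 0.0012). Pdia4, of the same family, read 8.49, 8.34 and 8.50 in saline, 8.50, 8.37 and 8.57 under TMT and 7.67, 7.86 and 7.71 under TET, a fall of 0.70 (adjusted p = 0.0002). Under TMT the differences of these 3 genes from saline were -0.02, -0.02 and 0.035. Manf, a secreted factor that stabilises BiP with its clients, read 10.60, 10.46 and 10.48 in saline, 11.10, 10.69 and 11.18 under TMT and 9.42, 9.80 and 10.11 under TET. It fell by 0.73 under TET (limma adjusted p = 0.0062). All its TMT arrays lay above the saline arrays, but the difference of 0.48 did not pass (adjusted p = 0.074), though it did without TMT replicate 2 (0.028), TET replicate 1 (0.028) or TET replicate 3 (0.037).

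Creld2, a disulfide isomerase-like protein induced by ER stress, moved both ways. It read 9.66, 9.90 and 9.76 in saline, 10.62, 10.68 and 10.60 under TMT and 9.25, 8.88 and 9.19 under TET, with no overlap between groups. It rose by 0.86 under TMT (1.82-fold, SE 0.11, limma adjusted p = 0.00024) and fell by 0.66 under TET (1.58-fold, adjusted p = 0.00079). Hsp90b1, the ER form of HSP90, rose by 0.31 under TMT (adjusted p = 0.029) and fell by 0.27 under TET (adjusted p = 0.031). Both of its calls were lost when single arrays were left out: the rise without any of saline replicates 1 to 3 or TMT replicates 1 and 3 (adjusted p 0.056 to 0.12), the fall without saline replicates 2 or 3 or TET replicate 2 (0.09 to 0.1). After cyclic loess the fall of Hsp90b1 was also lost (adjusted p = 0.22).

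The other falls under TET were 0.64 for Hyou1, the nucleotide exchange factor of BiP, 0.54 for the lectin chaperone Calr, 0.43 for Pdia3, its isomerase partner, 0.37 for Sdf2l1, a partner of BiP, and 0.36 for the membrane lectin Canx. Their adjusted p-values in limma ran from 0.00084 for Hyou1 to 0.019 for Canx. That of Sdf2l1 became 0.06 without saline replicate 3, and that of Canx 0.057 without saline replicate 2, 0.074 without saline replicate 3 and 0.057 without TET replicate 1. After cyclic loess the calls of Pdia3, Sdf2l1 and Canx were lost (adjusted p = 0.075, 0.47 and 0.18), and that of Sdf2l1 also after another quantile normalization (0.20). The brightest probe sets of Hyou1 and Canx can bind related transcripts. The second probe set of Hyou1 stood at -0.37 under TET without passing, and its dimmest fell by 0.59. The second of Canx showed 0.05 (adjusted p = 0.77 over all probe sets), and its dimmest fell by 0.54. Pdia5, the dimmest chaperone at a mean of 6.75 in saline, stood at -0.39 under TMT and -0.18 under TET relative to saline and passed in neither.

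**Figure D3:**
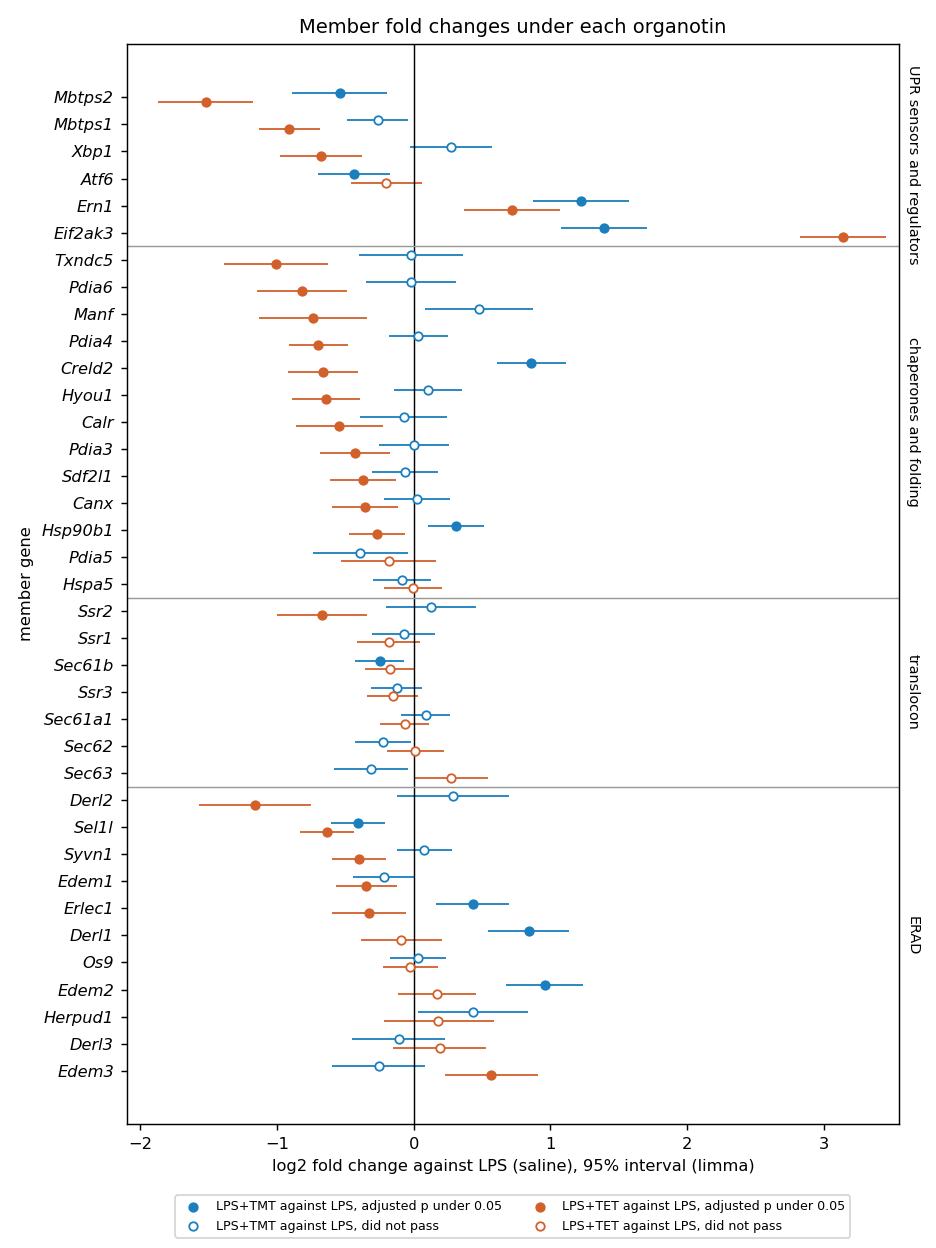
Log2 fold change of each ER gene against saline under TMT (blue) and TET (orange), with 95% intervals from limma (n = 3 arrays per group); filled points passed at an adjusted p under 0.05. The chaperone points under TET lie left of 0, with Hspa5 nearest to it at -0.003, and Eif2ak3 under TET stands alone at 3.14.

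Of the 7 measured translocon genes, 1 fell and none rose under TMT (14.3%, against 13.4% of all genes and 22.1% of bright genes). Under TET another 1 fell and none rose, where 23.4% of all genes and 41.3% of bright genes fell. At an unadjusted p under 0.05 in limma, 0 would count as higher and 3 as lower under TMT. Under TET 1 would count as higher and 1 as lower. Ssr2, a subunit of the translocon-associated protein complex, read 9.73, 9.66 and 9.6 in saline, 9.85, 9.51 and 10.01 under TMT and 8.96, 9.24 and 8.77 under TET. It fell by 0.67 under TET (1.59-fold, SE 0.15, limma adjusted p = 0.0038; 0.057 after cyclic loess). Sec61b, the small beta subunit of the channel, read 11.83, 11.89 and 11.79 in saline, 11.57, 11.52 and 11.67 under TMT and 11.66, 11.68 and 11.65 under TET. It fell by 0.25 under TMT (limma adjusted p = 0.043), a call lost without any of saline replicates 1 to 3 or TMT replicates 1 and 2 (0.082 to 0.15). All TET arrays of Sec61b also lay below the saline arrays, but the difference of -0.17 did not pass (adjusted p = 0.10).

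The channel itself, Sec61a1, read 13.11, 13.15 and 13.07 in saline, 13.21, 13.23 and 13.15 under TMT and 13.11, 12.96 and 13.06 under TET, differences of 0.09 and -0.07 that did not pass. Ssr1 and Ssr3, the other measured subunits of the translocon-associated complex, stood at -0.07 and -0.12 under TMT and at -0.18 and -0.15 under TET, and passed in neither, though Ssr1 did under TET without TET replicate 3 (adjusted p = 0.023). The next probe set of Ssr1, nearly as bright, fell by 0.665 under TET (limma adjusted p = 0.0011 over all probe sets). A dimmer one fell by 0.651 under TET and by 0.419 under TMT, and the dimmest passed in neither. Sec62 and Sec63, which help post-translational entry, gave different answers from different probe sets. The brightest probe set of Sec62 stood at 0.01 under TET, another rose by 0.75 and the remaining 3 fell, by 0.33, 1.65 and 1.12, all 4 at an adjusted p of 0.0098 or less over all probe sets. Sec63 stood at 0.28 on its brightest probe set (adjusted p = 0.084, and 0.048 without TET replicate 2) and fell by 0.79 on the next. Neither gene has a settled direction under TET.

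Of the 11 ERAD genes, 3 rose and 1 fell under TMT, and 1 rose and 5 fell under TET. The 3 rises under TMT (27.3%) stand beside 14.3% of all genes and 24.1% of bright genes, and the 5 falls under TET (45.5%) beside 23.4% and 41.3%, so both shares lay near those of bright genes. The median log2 fold change of the 11 was 0.08 under TMT and -0.09 under TET, and the TET median became 0.02 after cyclic loess. Derl2, a derlin that forms part of the exit channel, read 10.91, 10.73 and 10.84 in saline, 11.17, 10.81 and 11.37 under TMT and 9.27, 9.90 and 9.83 under TET. It fell by 1.16 under TET (2.23-fold, SE 0.18, limma adjusted p = 0.00048), and its second probe set fell by 1.62. Derl1, its close relative, read 11.21, 11.41 and 11.40 in saline, 12.11, 12.32 and 12.10 under TMT and 11.13, 11.08 and 11.54 under TET. It rose by 0.84 under TMT (1.79-fold, limma adjusted p = 0.00081) with TET arrays on both sides of the saline arrays. The rise was on the pair of probe sets that can bind related transcripts (0.84 on each), and the other pair stood at -0.03 and 0.10. Derl3, the third derlin, lay below the median gene at a mean of 6.21 in saline and passed in neither comparison.

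The EDEM lectins, which mark misfolded glycoproteins for removal by trimming their mannose, each took a different course. Edem2 read 8.28, 8.48 and 8.45 in saline, 9.61, 9.12 and 9.35 under TMT and 8.46, 8.65 and 8.61 under TET. It rose by 0.96 under TMT (1.94-fold, SE 0.13, limma adjusted p = 0.00025), and its difference of 0.17 under TET did not pass. Edem3 read 9.61, 9.68 and 9.77 in saline, 9.28, 9.82 and 9.20 under TMT and 10.20, 10.39 and 10.18 under TET. It rose by 0.57 under TET (1.48-fold, limma adjusted p = 0.011). Under TMT its arrays lay on both sides of saline, and its difference of -0.26 did not pass (adjusted p = 0.28), though it did without TMT replicate 2 (-0.45, adjusted p = 0.011) and with array weights (-0.41, 0.0016). Edem1 fell by 0.35 under TET on its brightest probe set (adjusted p = 0.015, and 0.11 after cyclic loess) and by 1.96 on the other. Under TMT the brightest stood at -0.22 without passing (adjusted p = 0.15), with every TMT array below saline. The other fell there by 0.655 (limma adjusted p = 0.0018 over all probe sets).

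In the HRD1 complex, which ubiquitinates ERAD clients, Sel1l fell under both organotins. This adaptor read 11.31, 11.33 and 11.31 in saline, 10.98, 10.78 and 10.97 under TMT and 10.74, 10.70 and 10.61 under TET. The falls were 0.41 under TMT (1.33-fold, SE 0.09, limma adjusted p = 0.0054) and 0.63 under TET (1.55-fold, adjusted p = 0.00019), and 5 of its 5 probe sets fell under TMT and 4 of 5 under TET. Syvn1, the ligase HRD1 itself, fell by 0.40 under TET (adjusted p = 0.004, and 0.11 after cyclic loess) and stood at 0.08 under TMT. Erlec1, a lectin that hands clients to the complex, rose by 0.43 under TMT (adjusted p = 0.022) and fell by 0.33 under TET (adjusted p = 0.044). The rise was lost without any of saline replicates 1 to 3 or TMT replicates 1 and 2 (0.053 to 0.078), and the fall without any single array but TET replicate 3 (0.054 to 0.13), which overlapped the saline arrays. Its 2 dimmer probe sets fell under TET, by 1.26 and 1.29 (limma adjusted p = 0.0006 and 0.00022 over all probe sets). Under TMT they stood at 0.27, which did not pass, and 0.61, which did (adjusted p = 0.031). Os9, the related lectin, stood at 0.03 under TMT and -0.03 under TET and did not pass. Herpud1, which recruits derlins to the complex, stood at 0.43 under TMT and 0.18 under TET without passing. The TMT difference passed without TET replicate 1 (adjusted p = 0.036) or TET replicate 3 (0.042). Its second, dimmer probe set rose by 0.35 under TMT (limma adjusted p = 0.027 over all probe sets) and stood at 0.16 under TET without passing.

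**Figure D4:**
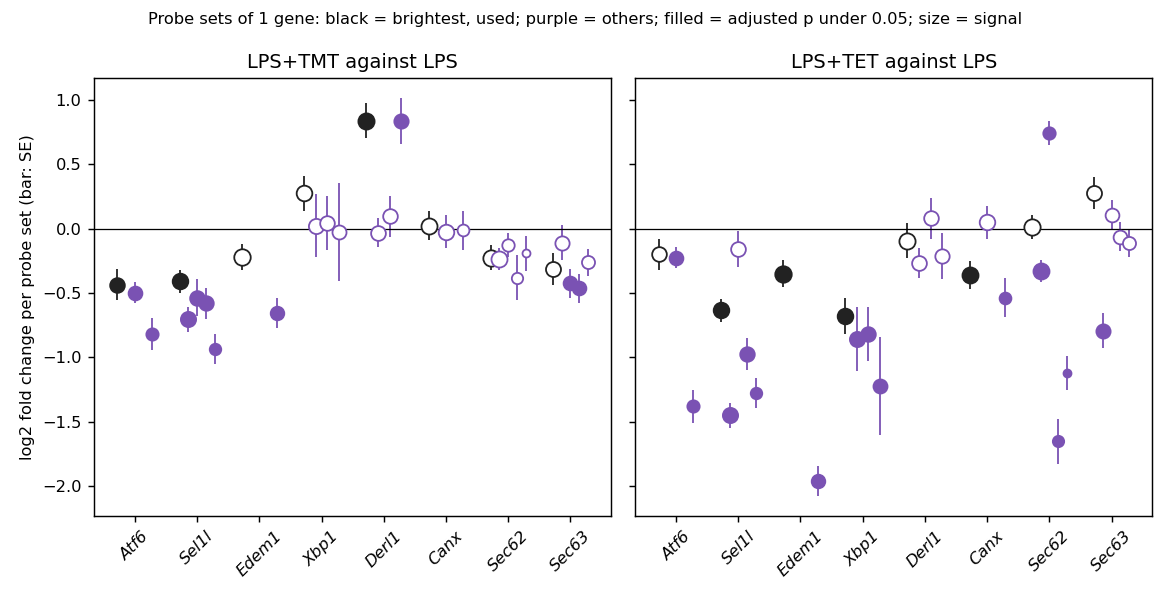
Log2 fold change against saline of each probe set of 8 ER genes under TMT (left) and TET (right), with the SE as bar; black marks the brightest probe set, which was used, purple the others, filled points passed at an adjusted p under 0.05 over all probe sets, and larger points are brighter. All 4 Xbp1 probe sets lie below 0 under TET, while those of Sec62 run from -1.65 to 0.75.

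Compared with TMT directly, TET at its higher dose gave lower values for 21 ER genes and higher values for 3. Over all genes 28.1% were higher and 23.7% lower under TET, and among bright genes 25.1% and 41.5%, against 8.11% and 56.8% of the 37. The median difference was -0.43, against 0.11 over all genes and -0.18 over bright genes. The 3 higher genes were Eif2ak3 (1.75, limma adjusted p = 4.1e-06), Edem3 (0.82, adjusted p = 0.0012) and Sec63 (0.59, adjusted p = 0.0025). Of the 5 probe sets of Sec63, 3 were higher under TET than under TMT (0.59, 0.535 and 0.40), 1 was lower (-0.68) and 1 did not pass. The largest differences downward were those of Creld2 (-1.53, adjusted p = 2.5e-06), Derl2 (-1.45, adjusted p = 0.0001) and Manf (-1.21, adjusted p = 0.00027). Xbp1 was lower by a difference of -0.95, Mbtps2 by -0.98, Txndc5 by -0.99, Derl1 by -0.93 and Edem2 by -0.79. Ern1 was lower under TET on its brightest probe set (-0.50, adjusted p = 0.022, and 0.064 to 0.076 without TMT replicate 2 or TET replicate 3) and higher on the next (0.66), so its order between the organotins is not settled. The same TET and TMT arrays enter the comparisons with saline, which are therefore not independent of this one.

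The wider ER pathway was described with 8 further lists holding 114 measured genes. Under TMT 23 of them rose and 19 fell, and under TET 21 rose and 55 fell, with median changes of 0.02 and -0.30. These are 20.2% and 16.7% of the 114 under TMT, where 24.1% of bright genes rose and 22.1% fell, and 18.4% and 48.2% under TET, where 23.6% rose and 41.3% fell. The shares over all genes were 14.3% and 13.4% under TMT and 27.4% and 23.4% under TET. Under TET 11 of 16 genes (68.8%) fell in signal recognition and signal peptidase, and 12 of 21 (57.1%) among carriers from the ER to the Golgi. In N-glycosylation and glycan trimming 9 of 16 (56.2%) fell, and 1 gene rose in each of these lists. The lists were chosen with earlier results of these data known, and their counts are descriptions.

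The genes downstream of PERK went the other way, with 7 of 10 (70%) higher and 3 (30%) lower under TET. Among bright genes 23.6% rose and 41.3% fell there. Under TMT 4 (40%) were higher and 3 (30%) lower, beside 24.1% and 22.1% of bright genes. Ddit3, which encodes the death-promoting factor CHOP, read 8.95, 9.0 and 8.98 in saline, 11.31, 11.44 and 11.10 under TMT and 11.90, 12.02 and 11.99 under TET, rises of 2.31 and 3.00 (limma adjusted p = 2.2e-07 and 1.3e-08). Chac1, a glutathione-degrading enzyme induced by CHOP and ATF4, read 5.70, 5.72 and 5.66 in saline, 7.22, 7.87 and 7.02 under TMT and 9.90, 10.12 and 10.27 under TET, rises of 1.68 and 4.41. Trib3, a pseudokinase of the same arm, rose by 3.04 and 4.53, on a probe set that can bind related transcripts. Nck1, an adaptor that promotes dephosphorylation of the PERK substrate, fell by 2.07 and 2.11.

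Among the HSP40 partners and nucleotide exchange factors of BiP, 3 of 7 rose (42.9%) and 2 fell (28.6%) under TMT. The bright genes gave 24.1% and 22.1%. Under TET 2 rose (28.6%) and 4 fell (57.1%), beside 23.6% and 41.3% of bright genes. Dnajb9, an inhibitor of IRE1 and a target of spliced Xbp1, read 9.80, 9.98 and 9.82 in saline, 10.48, 10.69 and 10.44 under TMT and 11.84, 11.95 and 11.84 under TET. It rose by 0.67 under TMT (1.59-fold, limma adjusted p = 0.00053) and by 2.01 under TET (4.02-fold, adjusted p = 1.6e-07), where Xbp1 fell. Dnajc1 rose under both (0.57 and 0.29). Dnajc25 fell under both (0.40 and 0.62), the TMT call being lost without saline replicates 2 or 3 or TMT replicates 1 or 3 (adjusted p 0.061 to 0.079). Dnajb11, a co-chaperone of BiP, rose by 0.31 under TMT, a call lost without any of saline replicates 1 to 3 or TMT replicates 1 and 3 (0.078 to 0.12), and fell by 0.49 under TET.

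The ER oxidoreductases outside the 38 genes gave 3 rises (21.4%) and 2 falls (14.3%) of 14 under TMT. Under TET they gave 1 rise (7.14%) and 7 falls (50%). The shares of bright genes were 24.1% and 22.1% under TMT and 23.6% and 41.3% under TET. Ero1a, the oxidase that recharges disulfide isomerases, rose by 0.81 under TMT (limma adjusted p = 0.0018) and fell by 0.39 under TET (adjusted p = 0.047), the fall being lost without any single array but TET replicate 3 (0.052 to 0.15). Txndc16 fell 2.82-fold under TMT and stood at 0.06 under TET without passing. Tmx4 rose by 1.40 under TET and stood at -0.15 under TMT (difference between the organotins 1.55, adjusted p = 6.2e-07), and Erp29 fell by 0.79 under TET.

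In N-glycosylation and glycan trimming 1 gene of 16 rose (6.25%) and 2 fell (12.5%) under TMT, beside 24.1% and 22.1% of bright genes. Under TET 1 rose (6.25%) and 9 fell (56.2%), beside 23.6% and 41.3% of bright genes. Mogs and Ganab, the glucosidases that trim new glycans so that calnexin and calreticulin can bind, fell by 2.01 and 1.52 under TET (limma adjusted p = 3e-06 and 2.8e-05). Magt1 and Rpn2, of the oligosaccharyltransferase, fell by 0.74 and 0.73. In signal recognition and signal peptidase 2 rose (12.5%) and 3 fell (18.8%) under TMT, both below the shares of bright genes. Tram1 read 11.10, 11.05 and 11.08 in saline, 10.76, 10.64 and 10.83 under TMT and 9.16, 9.16 and 9.21 under TET. It fell by 1.90 under TET (limma adjusted p = 7e-08). Spcs3, a signal peptidase subunit, fell by 1.87 under TET and stood at -0.06 under TMT. Tram2 fell by 1.31 and Srprb, a subunit of the receptor for the signal recognition particle, by 0.85.

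In ERAD extraction and ubiquitination 6 of 20 rose (30%) and 2 fell (10%) under TMT, beside 24.1% and 22.1% of bright genes. Under TET 5 rose (25%) and 8 fell (40%), near the 23.6% and 41.3% of bright genes. The ligases Rnf139 and Rnf5 fell by 1.49 and 1.17 under TET, while Ubxn4, an anchor of the p97 segregase, rose by 1.07. Ngly1, which strips glycans from extracted proteins, rose by 1.08 under TMT. In the ATF6 family and other ER stress transducers 2 of 11 rose (18.2%) and 2 fell (18.2%) under TMT. Under TET 3 rose (27.3%) and 2 fell (18.2%). Wfs1 rose by 1.23 and Creb3l4 by 0.92 under TET, Creb3l1 fell by 0.95 under TMT, and Crebzf rose by 0.44 under TMT and fell by 1.19 under TET. Of the carriers from the ER to the Golgi, 2 of 21 rose (9.52%) and 3 fell (14.3%) under TMT. The GTPase gene Sar1a fell by 1.53 under TET, and the coat genes Sec24a, Sec24c and Sec23ip by 1.39, 1.13 and 1.04.

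**Figure D5:**
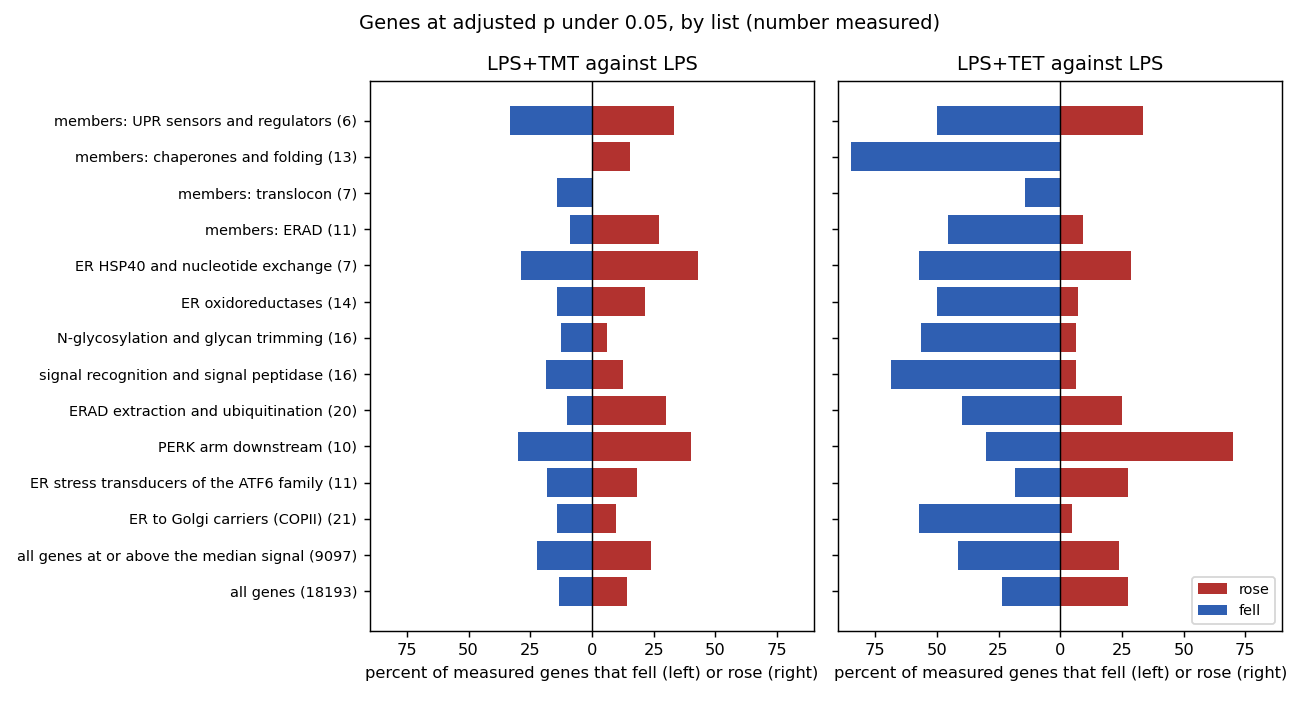
Percent of the measured genes of each list that fell (bars to the left) or rose (bars to the right) at an adjusted p under 0.05, under TMT (left panel) and TET (right panel), with the number measured in brackets and all genes at the bottom. The longest bar is that of the chaperones under TET, 11 of 13, and the list downstream of PERK is the only one under TET with more than 5 rises.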

How the data were processed

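Expression was measured on 9 Affymetrix mouse arrays, 3 per group. The authors deposited 1 table of log2 values for 45037 probe sets, made with RMA and affy per the submitters' processing notes; no version is named in the sources. The base of the logarithm was taken from the values (2.05 to 14.8), and no further normalization was applied. Precision is limited by having 3 arrays per group.

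Of the probe sets, 34945 named 1 gene, 932 several and 9160 none, and only the first were used, 1 per gene (18193 genes). The tests used limma 3.58.1 (R 4.3.3) with 1 mean per group over all 9 arrays (6 residual and 3.99 prior degrees of freedom), so that the groups share 1 spread, with Benjamini-Hochberg adjustment over all genes. The fit was tested on simulated data. An exact permutation test of 3 against 3 cannot go below p = 0.1 and was not used. SD is over 3 arrays and SE is limma's moderated standard error.

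The members, lists and rules were chosen with earlier results of these data known. Array values are given for Hspa5, Xbp1, Ern1, Atf6 and Eif2ak3, and in each role for up to 5 genes with the largest change among those that passed; each of the 8 pathway lists names up to 4 such genes. Sec61a1 was added after its values were seen, and so were array values of some pathway genes. Promoter windows are RefSeq's (GRCm38.p6). The 22 alternatives were leaving out each array, other filters, normalizations, probe set rules, variance models, samples and thresholds.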

Additional observations from a re-analysis of the deposited data

Results flagged for a closer look

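Of the ER genes, 3 rose under TMT and fell under TET, each against the same saline arrays. The share of all genes with such opposite calls was not counted, so the 3 cannot be called many or few. Creld2 stood at 0.86 under TMT and -0.66 under TET, a difference of -1.53 between the organotin groups. Hsp90b1 stood at 0.31 and -0.27 (difference -0.58), and Erlec1 at 0.43 and -0.33 (difference -0.76). The 3 genes were picked for their opposite calls, and the differences come from the same arrays, so they are given as descriptions and not as further support. For Hsp90b1 and Erlec1 the calls against saline were lost when single arrays were left out. The dimmer probe sets of Erlec1 stood at 0.27 and 0.61 under TMT and fell by 1.26 and 1.29 under TET. The doses differ, and compound and dose cannot be told apart.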

How the results depend on the processing

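Under 22 alternatives, 4 of the 11 ER genes called under TMT, 12 of 23 under TET and 15 of 24 between the organotins kept their call in every one. Leaving out 1 array gave 5 to 10 rises and 1 to 4 falls under TMT, 3 to 4 rises and 16 to 21 falls under TET, and 3 to 4 higher and 18 to 21 lower genes under TET against TMT. The calls over all genes then ran from 3971 to 5522, 7540 to 9372 and 8006 to 9232, and the medians of the ER genes from -0.03 to 0.07, -0.35 to -0.26 and -0.45 to -0.36. Array weights gave 11 rises, 10 falls and 8756 calls over all genes (5049 as deposited) under TMT. A test against a 1.2-fold change left 0 falls under TMT in limma (4 against no change; 0 also at an unadjusted p under 0.05), 12 under TET, and 2760, 5143 and 5374 calls over all genes in the 3 comparisons, and 1 fall under TMT passed at 0.01. Bright genes alone gave 6066 and 6270 calls for TET against saline and against TMT (9247 and 9425 over all genes), from fewer genes tested. Cyclic loess gave 5 rises and 12 falls under TET, a median of -0.14, and for TET against TMT 6 higher genes and a median of -0.23. Another quantile normalization gave a median of -0.21 under TET and 5 higher genes against TMT. The mean over probe sets gave a median of -0.31 for TET against TMT. The cause was not tested. Centring moved the share of all calls under TET that rose from 53.9% to 40.6%, and against TMT from 54.3% to 43.8%.

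Of values that passed before or after the change, the sign turned with the probe set rule for 5 ER genes; it also turned in 13 values of 10 genes, such as Hspa5 and Syvn1 under TMT, that passed neither way. With the mean over probe sets, Ern1 between the organotins became 0.11, and Sec62 -0.47 under TET and -0.24 against TMT. Without probe sets that can bind related transcripts, Canx became 0.05 under TET and 0.073 against TMT, Sec63 -0.79 and -0.68, and Derl1 -0.03 under TMT. Whether the replicate numbers pair the samples is not settled. Deviations of same-numbered arrays correlated at 0.02 to 0.31 between TMT and saline, and those of differently numbered arrays at -0.30 to 0.26. Between TET and saline these were -0.13 to -0.04 and -0.04 to 0.095, and between TET and TMT -0.148 to 0.145 and -0.26 to 0.262. With 3 arrays per group such correlations cannot show or exclude a pairing. With the number as a replicate block there were 7 rises and 3 falls under TMT, 3 and 19 under TET, and 3 and 20 between the organotins.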
